A study of Homo sapiens with 4 samples.

Results

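The human colon cancer line HCT116 was transfected either with the empty expression plasmid pcDNA3.1 (the vector group) or with pcDNA3.1-pri-miR663a, which expresses the primary transcript of miR663a from that plasmid (the overexpression group). The comparison holds 1 array per group, 2 of the 4 arrays in the series. Both arrays were chosen by their labels, without use of any measured value. The other 2 arrays came from HCT116 cells given a single-stranded scrambled RNA or a single-stranded inhibitor of miR663a, and they form a separate pair that shares no array with the overexpression pair. For some named genes their levels are also set beside those of the plasmid arrays. The labels give 1 growth protocol for all 4 cultures. They give neither the plasmid dose nor the time after transfection. The design text gives the aim as finding genes that miR663a holds down. With 1 array a side there is no spread between replicates, so every difference below is a description of these arrays and carries no test.

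MicroRNAs are short RNAs that guide Argonaute proteins to messenger RNAs, mostly through pairing of the seed, the bases near the 5′ end of the microRNA, with sites in the 3′ untranslated region. Bound messengers are translated less and are often deadenylated and decayed, so the lowering of a target is usually modest. MiR-663a is encoded in the pericentromeric part of chromosome 20 and has been studied in inflammation and in several cancers. A plasmid with the primary transcript depends on the cell's own Drosha and Dicer to release the mature microRNA.

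The mature sequences show what the transfected microRNA shares with others in the genome. They are given 5′ to 3′ from RefSeq (GRCh38.p14), with bases 2 to 8, the seed, in capitals.
hsa-miR-663a: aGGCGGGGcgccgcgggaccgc
hsa-miR-1908-5p: cGGCGGGGacggcgauugguc
hsa-miR-6787-5p: uGGCGGGGguagagcuggcugc
hsa-miR-10396b-5p: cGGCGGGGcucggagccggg
hsa-miR-663b: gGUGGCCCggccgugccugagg
Of 2370 mature microRNA names in the table, 4 carried the seed of miR-663a, namely miR-663a and the 3 listed after it. MiR-663b has a similar name and another seed. The mature miR-663a lies at chr20:26208243-26208264 on the minus strand, inside the noncoding host gene MIR663AHG (chromosome 20, 26187019 to 26209233). It is 22 bases long and 90.9% G or C.

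The arrays did not measure the mature microRNA, so its level does not check the transfection here. In the authors' deposited table the 3 probe sets of MIR663AHG had log2 ratios of overexpression over vector of -0.19, -0.01 and 0.38, and the last is listed on another chromosome than the gene. The host transcript therefore had no common direction on its probe sets. TTC22, a tetratricopeptide repeat gene named among the published targets, was higher on all 4 of its probe sets in the authors' deposited table, from 0.10 to 0.40 with a median of 0.21. DICER1, the enzyme that releases mature microRNAs, had a median of -0.22 over 6 probe sets that ran from -0.62 to 0.17.

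The vector and overexpression arrays correlated at 0.996 across 16381 probe sets with levels, and their median log2 levels were 4.12 and 4.19. Log2 ratios drifted with signal, from a median of 0.08 in the dimmest of 5 equal groups of probe sets to -0.09 in the brightest. A dim gene that was slightly higher and a bright gene that was slightly lower therefore followed the bulk of the array. The control probe sets for the 3′ and 5′ ends of ACTB had log2 ratios of -0.08 and -0.01, and those of GAPDH had -0.04 and -0.03. Epithelial markers were bright on both arrays, with EPCAM at 12.55 on the vector array and 12.26 on the overexpression array, and KRT18 at 13.11 and 13.20. Of markers for other cells, PTPRC of leukocytes stood at 2.04 and 2.22, KDR of endothelium at 2.45 and 2.47 and albumin, ALB, at 1.93 and 1.99. Over the whole lists, the members with a brightest set above the median on both arrays were 10 of 12 epithelial, 5 of 12 leukocyte, 2 of 8 endothelial, 4 of 10 fibroblast, 2 of 7 neural and 1 of 7 hepatocyte markers. DCN of fibroblasts went from 4.13 to 4.78 on the set with levels, and had 0.05 to 0.15 on its other 4 sets. The part of these markers in the results was not tested. Each array measured RNA of a whole culture, so fewer cells with a transcript and less of it per cell cannot be told apart.

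How well probe sets of one gene moved together set how much weight a single value could bear. Probe sets of a gene read different stretches of its transcripts in the same RNA, and some share probes, so they are no replicates. Among 1385 genes with a pair of probe sets above the median on both arrays, the log2 ratios of the 2 brightest sets correlated across genes at 0.30, and 65.0% of the genes had both on the same side of 0. The difference between the sets had a standard deviation of 0.28. For the inhibitor over scrambled RNA the same correlation was 0.098 over 1384 genes. Agreement followed brightness. In the dimmest of 4 equal groups by the dimmer set the correlation was 0.002, with 53.7% on the same side, and in the brightest it was 0.32, with 72.4%. Correlations across genes describe these arrays only, since genes of one array share its RNA and its normalization.

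**Figure D1:**
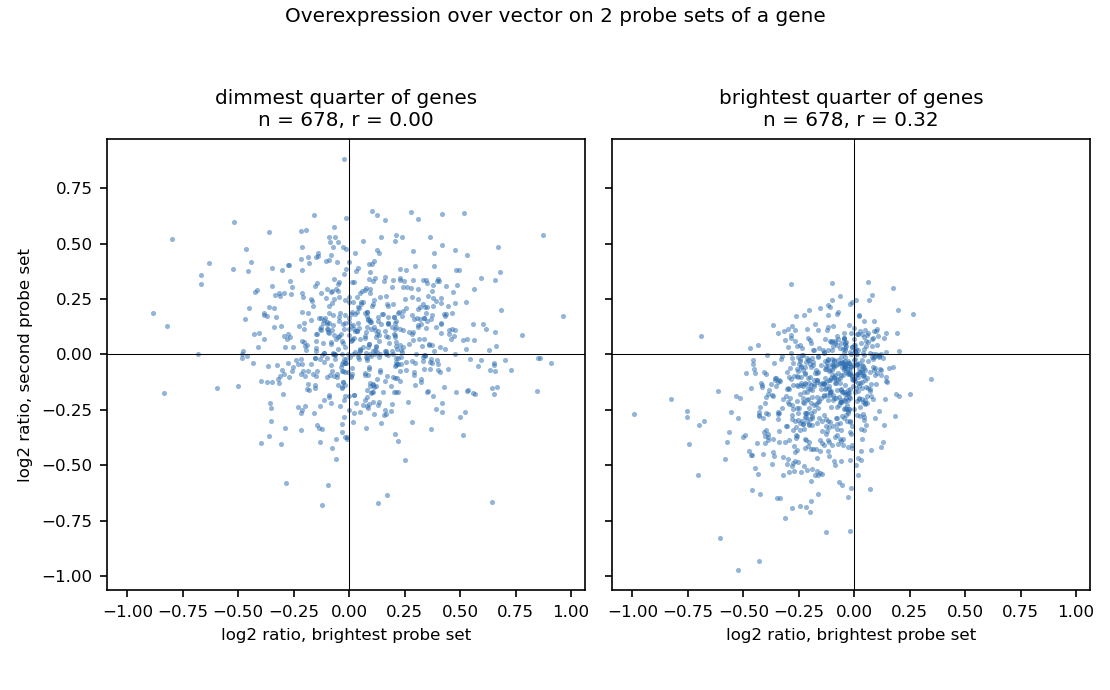
Log2 ratio of overexpression over vector on the brightest probe set (x axis) and the second probe set (y axis) of each gene, 1 point a gene, for the dimmest (left) and brightest (right) of 4 equal groups of genes. The left cloud is round, with a correlation of 0.002, and the right cloud slopes upward and lies mostly below 0, with a correlation of 0.32.

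The share of genes whose probe sets all lay on one side of 0 was higher with overexpression than with the inhibitor at every number of probe sets counted. It was 58.1% against 52.7% for 5273 genes with 2 probe sets, and 36.3% against 27.2% for 2807 genes with 3. It was 25.7% against 16.97% for 1385 genes with 4, and 15.8% against 8.02% for 698 genes with 5. With 5 probe sets, 79 of the genes on one side were lower with overexpression and 31 were higher. Genes were then counted by 2 rules, and neither is a test.

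The first rule took each gene by its brightest probe set, asked for a level above the median on both arrays, and counted a difference of at least 1.5-fold. Here and throughout, brightest means brightest among the sets of a gene with levels, since the other sets have ratios only. It called 89 of 5511 genes lower (1.61%) and 51 higher (0.925%). With each array centred on its median the counts were 142 lower and 28 higher, and after quantile normalization they were 57 and 54, so the split between lower and higher depended on the scaling. At 2-fold, 2 genes were lower (0.0363%) and 3 higher (0.0544%).

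The second rule asked that a gene have at least 2 probe sets and that every one of them differ by at least 1.2-fold in the same direction. It called 257 of 10741 genes lower (2.39%) and 176 higher (1.64%). Subtracting the median log2 ratio of all probe sets, -0.017, left 215 lower and 208 higher. That shift raises every ratio, unlike the centring of each array under the first rule, which lowers them. Centring of each array was not run for the second rule. With the inhibitor the same rule called 83 lower (0.773%) and 69 higher (0.642%). Among 5468 genes with 3 or more probe sets, 58 were lower with overexpression (1.06%) and 24 higher (0.439%). FBXO11 at -0.263 on its weakest probe set stood just inside the lower rule and HINT3 at -0.261 just outside. LFNG and CACNG6, both at 0.263, stood just inside and just outside the higher rule.

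Levels were given for 37.7% of the genes called lower, 54.0% of those called higher and 53.1% of the rest. Among these, the lower genes had a median level of 7.60 over 97 genes and the higher genes a median of 3.76 over 95, against 5.56 for genes called neither way. A brightest probe set above the median on both arrays was held by 87 of the 97 lower genes with levels and 36 of the 95 higher genes with levels. Of the 5474 genes with levels called neither way, 3676 held one. Over all genes, with or without levels, these are 33.9% of the lower, 20.5% of the higher and 35.7% of the rest. The lower genes spanned a median of 44.7 kb of genome and the higher genes 19.5 kb, against 38.3 kb for the rest. Signal moved with direction, as in the drift described above, and its part in these counts was not tested. By chromosome, the shares were read against 2.39% lower and 1.64% higher over all genes. Lower genes made up 5.12% on chromosome 13 (11 of 215 genes), 4.01% on chromosome 8 (15 of 374) and 3.98% on chromosome 4 (17 of 427). They made up 1.02% on chromosomes 11 and 17 (6 genes each). Higher genes made up 2.86% on chromosome 22 (7 of 245), 2.76% on chromosome 19 (17 of 615) and 2.71% on chromosome 11 (16 of 590). On chromosome 18 they made up 0.546% (1 of 183). These chromosomes were picked by their shares and rest on few genes, so they are no result about a chromosome.

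The genes lower on 3 or more probe sets are given by known role, sorted after ranking and with no test of any role. Those with a role in signalling come first. SOCS6, an adaptor that directs receptor and cytokine signalling proteins to ubiquitin ligases, stood at 8.19 on the vector array and 7.31 on the overexpression array, 1.85-fold lower. In the authors' deposited table, 2 further sets of SOCS6 had log2 ratios of -0.84 and -0.27. MAP4K5, a kinase upstream of the JNK pathway, went from 7.65 to 6.89 on one probe set and from 7.26 to 6.98 on another, and had -0.96 on its remaining set. All 3 sets of both genes were thus lower, with a spread among sets of the same gene that came near the size of the change. TANK, which binds TRAF proteins and the kinase TBK1, had -0.69, -0.67 and -0.51 in the authors' deposited table. PPP1CB, which encodes 1 of the catalytic chains of protein phosphatase 1, was lower on all 4 of its sets, with its brightest at 10.11 on the vector array and 9.37 on the overexpression array. Its median was -0.55, or 1.47-fold.

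Others of these genes encode proteins of the nucleus. ZMYM5, a zinc finger protein, went from 6.72 to 5.85 on its brightest probe set and was lower on all 4, from -0.96 to -0.51. Of those 4 sets, 3 carry a suffix (s or x) that marks probes shared between transcripts. RECQL, a DNA helicase, had 4 sets between -0.88 and -0.55, of which 2 are listed on another chromosome than the gene. GTPBP4, a nucleolar GTPase of ribosome assembly, had a median of -0.58 in the authors' deposited table, with its weakest set at -0.27. BTG1, an antiproliferative cofactor of deadenylation, went from 10.83 to 10.37 and from 10.05 to 9.59 on its bright sets. Its dim set went from 4.42 to 4.13, a smaller difference than on the bright sets.

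The next genes encode enzymes or their subunits. UFL1, the ligase that attaches the ubiquitin-like UFM1, had -0.65, -0.63 and -0.29 in the authors' deposited table. SENP6, which trims SUMO chains, went from 9.15 to 8.66 on its brightest set and lay between -0.55 and -0.48 on all 3. PSPH, the last enzyme of serine synthesis, went from 9.73 to 9.12 and from 9.42 to 8.596, and had -0.50 on its remaining set. GCLM, the modifier subunit of the enzyme that starts glutathione synthesis, went from 10.59 to 10.17, with -0.48 and -0.77 on the sets without levels. The SENP6 sets lay within a narrow span and the GCLM sets within a wider one. The membrane proteins LRP12, of the LDL receptor family, and SLC35G1 had medians of -0.58 and -0.52 in the authors' deposited table.

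Among genes with exactly 2 probe sets, PTGS2 differed most by its smaller change. PTGS2, the inducible cyclooxygenase, went from 6.82 to 6.07 and from 5.35 to 4.53 between the vector and overexpression arrays. On the scrambled RNA array those sets stood at 5.92 and 4.42, as low as with overexpression. CARNMT1, a histidine methyltransferase, had -0.68 and -0.65 in the authors' deposited table, and CAAP1, a regulator of apoptosis, had -0.65 and -0.59. TUBGCP5 of the gamma-tubulin complex had -0.74 and -0.56, REEP3 of the endoplasmic reticulum -0.70 and -0.55, and KCNRG, a potassium channel regulator, -0.69 and -0.53, all in the authors' deposited table. APPL1, an endosomal adaptor of insulin and adiponectin signalling, had -0.57 and -0.53 there. REST, the repressor of neuronal genes, went from 5.9955 to 5.49 and had -0.59 on its other set, and 1 of its sets is listed on another chromosome. Both sets of each of these 8 genes were lower by at least 1.42-fold.

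Of the 95 genes higher on every probe set that had levels, 36 had a brightest set above the median on both arrays. Among the higher genes with 3 or more sets, TSSK6, a testis kinase, had 0.52, 0.52 and 0.39 in the authors' deposited table. TMEM204, an endothelial junction protein, had 0.61, 0.51 and 0.35 there, and CYP2D6, a liver drug-metabolising enzyme, 0.58, 0.47 and 0.44. The CYP2D6 sets may read related cytochrome genes or pseudogenes. TYR, the tyrosinase of melanin synthesis, went from 3.76 to 4.04 on its brightest set, from 2.60 to 3.08 and from 1.65 to 2.11, all under the median of the vector array. CYP2A6, likewise one of several near-identical genes, had 4 sets from 0.31 to 0.40. GPR173, an orphan receptor, had 4 sets from 0.34 to 0.46, and GRAPL 4 sets from 0.44 to 0.64.

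Others of this group were HELZ2, an interferon-induced coactivator with helicase domains, with a median of 0.43 over 4 sets, and the RNA-binding ELAVL3, known from neurons, with 0.42. NALCN, a sodium leak channel, and DPT, a matrix protein, had medians of 0.42 and 0.40. SNCAIP, a synuclein-binding protein, SCAMP5, a vesicle protein, and CFAP157, a ciliary protein, had 0.39, 0.38 and 0.38. The pseudogene SH3GL1P2 had a median of 0.50, but its 3 sets are listed on another chromosome. Among genes with exactly 2 sets, HTR3A, a serotonin receptor channel, had 0.93 and 0.70 in the authors' deposited table, P3H2, a collagen prolyl hydroxylase, 0.85 and 0.67, and STON1, an endocytic protein, 0.82 and 0.62. AIPL1 had 0.77 and 0.66, the MYCN antisense RNA MYCNOS 0.75 and 0.55, and the urate transporter SLC2A9 0.57 and 0.57 there. HLA-DOB, a class II chaperone subunit, went from 4.40 to 4.93 and from 3.82 to 4.46. The pseudogene LCMT1P1 went from 2.48 to 3.35 on a set under the median of both arrays.

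**Figure D2:**
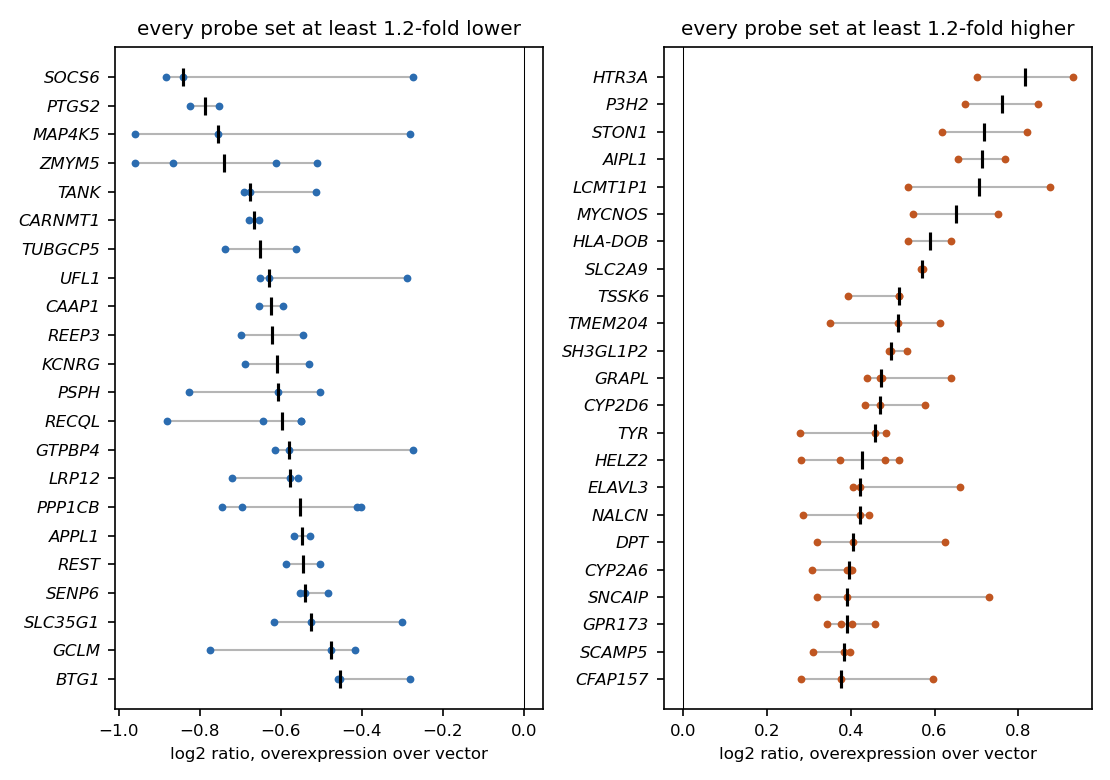
Log2 ratio of overexpression over vector for each probe set (points) of genes named by the rule on every probe set, 1 row a gene, with a line from its lowest to its highest set and a black tick at the median. All sets of the lower genes lie left of 0, with SOCS6 at the lowest median among genes with 3 or more sets (-0.84), and all sets of the higher genes lie right of 0, with TSSK6 at the highest such median (0.52).

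The largest differences on a single probe set shrank on the remaining sets. Of the 12 lowest genes on the brightest set, 10 had other sets, and the median of these was below 0 for each of them but smaller than the brightest value. CEP57, a centrosomal protein, went from 9.04 to 8.05 on its brightest set and was lower on its other 4, between -0.62 and -0.19. ZCCHC7, of nuclear RNA surveillance, went from 6.83 to 5.97 with a median of -0.11 on its others. Of the 12 lowest genes, SOCS6, ZMYM5 and NOCT also passed the rule on every set. IL18, an interleukin-1 family cytokine, went from 9.42 to 8.39 on its single set, and the duplicated DUSP5P1 likewise rested on 1 set.

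Of the 12 highest genes on the brightest set, 9 had other sets, and none of the 12 passed the rule on every set. TCP11L2 went from 4.86 to 5.69 while its other 6 sets had a median of -0.03, and CFAP410 from 5.77 to 6.62 with a median of 0.06 on its other 6. STX17-DT, a divergent transcript, went from 8.56 to 9.66 with 0.13 on its other set. ANK1, the erythroid ankyrin, was higher on all 7 of its sets. It went from 4.42 to 5.204, and its other 6 sets lay between 0.19 and 0.53. Transcript ends, splice forms and cross-reacting probes can all differ between sets of a gene, and none of these was examined.

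The pathway lists were read against the share of all genes called, 2.39% lower and 1.64% higher. Over all 20239 genes the median of gene medians was -0.007. The genes of the amino acid response had more members lower on every set than any other list, 5 of 13, with 0 higher and a list median of -0.13 over 26 genes. These genes are induced by the transcription factor ATF4 when amino acids run short. In 12 of them the brightest set was above the median on both arrays. On that set their median was -0.07, near the -0.04 of all 5511 such genes. The part of the signal drift in this list was not tested. Beside PSPH, the serine synthesis enzyme PSAT1 had -0.46 on both sets in the authors' deposited table. TRIB3, a pseudokinase that dampens ATF4, went from 7.89 to 7.30 with -0.41 on its other set. CEBPG, a dimer partner of ATF4, went from 10.21 to 9.88, with -0.37 on its other set. SESN2, an amino acid sensor and also a p53 target, had -0.32 and -0.29 in the authors' deposited table.

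Other members were picked out after their values were seen. ATF4 itself, read by 1 set, was at -0.06 and ASNS, the asparagine synthetase, split between -0.27 and 0.42, so the list did not move as a block. At 1.1-fold, 7 of 13 were lower against 8.46% of all genes, with the transporters SLC38A2 and SLC7A1 added. Without s and x sets, whose probes are shared between transcripts, 5 members could be counted and 2 were lower, CEBPG and TRIB3, against 2.5% of all genes. Among 7 members with 3 or more sets PSPH alone was lower. With the inhibitor, PSAT1, TRIB3 and CEBPG were above 0 on both of their sets, while PSPH had 2 sets above 0 and 1 at -0.33, and SESN2 had -0.07 and 0.07.

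**Figure D3:**
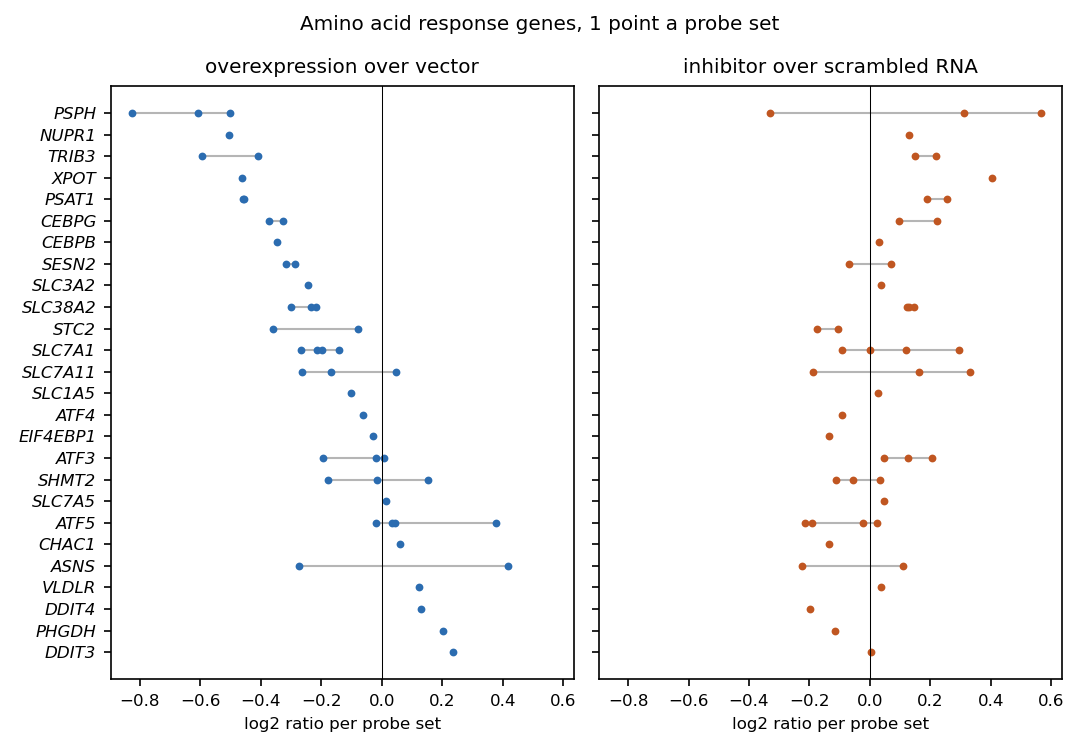
Log2 ratio of each probe set (points) of the 26 measured amino acid response genes, 1 row a gene, for overexpression over vector (left) and inhibitor over scrambled RNA (right), ordered by the median on the left. PSPH, TRIB3, PSAT1, CEBPG and SESN2 have every set left of -0.26 with overexpression, while ATF5, DDIT3 and PHGDH at the foot lie near or right of 0.

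Other lists with 3 members lower were the clock, heat shock and centrosome genes. Of 19 clock genes NOCT, BMAL1 and NR1D2 were lower and 0 higher. Without s and x sets 2 of 11 clock genes were lower, and among 9 with 3 or more sets 0 were. NOCT, a rhythmic phosphatase of NADP first described as a deadenylase, went from 7.76 to 6.88 with -0.46 on its other set, and it is also the 1 member lower among 27 deadenylation and decay genes. The clock activator BMAL1 had -0.56 and -0.34 and the repressor NR1D2 -0.56 and -0.45 in the authors' deposited table. Of 16 heat shock genes DNAJB4, HSPA13 and the factor HSF2 were lower, with DNAJB4 going from 8.44 to 7.95 and HSPA13 from 9.58 to 9.27. Without s and x sets, 0 of the 5 heat shock genes left were lower. Of 34 centrosome genes CEP89, CEP120 and CEP170 were lower, and the list median was -0.16. Without s and x sets, 2 of 20 centrosome genes were lower and 2 higher. Among 22 with 3 or more sets, CEP89 alone was lower. CEP89 was lower on all 6 of its sets, from -0.76 to -0.31, the most sets of any gene called. CEP170 rests on 2 sets listed on another chromosome.

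Most signalling lists held 1 called member, a count too small to read against the shares of all genes, and the members are named for their values. The Hippo genes had the lowest median of the 54 pathway lists, -0.19 over 21 genes, with 17 (81.0%) below 0 against 51.2% of all genes. Of the 21, 10 had a brightest set above the median on both arrays, and the part of the signal drift in this share was not tested. The kinase STK3 was lower among 15 counted, from 9.41 to 8.997. The cofactor YAP1 had a median of -0.42 over sets from -0.49 to -0.19 and did not pass the rule. Of 19 SOCS, JAK and STAT genes SOCS6 was lower, and SOCS5 and SOCS4 had medians of -0.57 and -0.31 without passing it. Of 17 KLF and SP factors KLF5, a factor of proliferating gut epithelium, was lower, with -1.35 and -0.35 in the authors' deposited table. Of 20 TGF-beta genes SMAD1 was lower, at a median of -0.38, and of 13 NF-kB genes REL, from 6.16 to 5.86. Of 29 MAP kinases and activators MAPK15 was higher, with 0.66 and 0.51 in the authors' deposited table. Of 23 Notch genes NOTCH4 and the glycosyltransferase LFNG were higher, and of 22 Wnt genes the ligand WNT10A, with medians of 0.34, 0.42 and 0.38.

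Inflammatory and interferon lists had no common direction. Of 11 interleukin-1 family genes IL1A was higher at a median of 0.37, and of 9 chemokines CX3CL1, from 4.92 to 5.23. Of 18 interferon genes IFIT2, an RNA-binding protein induced by interferon, was higher at a median of 0.53, while the RNA sensor IFIH1 was lower at a median of -0.29. The only set of IFIH1 with levels, 1 of 3, was dim, at 3.03 on the vector array.

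In the nucleus, of 17 m6A genes the writer component CBLL1 and the helicase reader YTHDC2 were lower, with medians of -0.41 and -0.29. Of 21 histone acetylation genes the acetyltransferase EP300 was lower, from 7.60 to 7.19 with -0.52 on its other set. Of 36 splicing factors HNRNPH2 was lower, from 10.24 to 9.88, and SNRNP70 higher, from 9.39 to 9.69. Of the 39 measured, 33 had a median below 0, where 51.2% of all genes did. A brightest set above the median on both arrays was held by 31 of them. The brightest of the 5 equal signal groups had a median of -0.09 and an upper quartile of 0.008, and the part of signal in this share was not tested. SNRNP70 was 1 of the 36 genes called higher with a brightest set above the median on both arrays. Of 18 noncoding RNAs NORAD was lower, with both of its sets listed on another chromosome. MALAT1, a nuclear RNA with 12 sets, had a median of -0.70 with sets from -1.77 to 0.38, of which 8 were below 0. Of 13 retinoblastoma and E2F genes E2F4 was higher, from 6.72 to 7.05, and of 9 histone genes H4C8 at a median of 0.39. Of 14 p53 genes SESN2 was the only one called.

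Among metabolic and trafficking lists, 2 of 24 autophagy genes were lower. RB1CC1, the scaffold of the initiating kinase, went from 9.32 to 9.04 with -0.69 on its other set, and WIPI1, a phosphoinositide reader, from 8.43 to 7.87 with -0.44. Of 26 coat and Golgi genes the COPII components SEC23A and SEC24A were lower, at medians of -0.43 and -0.33. SEC24D, a paralog, had a median of -0.50 but 1 set at -0.09. Of 46 respiratory chain genes SDHB was lower, from 10.68 to 10.40 with -0.69 on its other set, and of 33 mitochondrial ribosomal genes MRPL19, from 9.93 to 9.51. Of 20 hypoxia and glycolysis genes PFKFB4 was higher, from 4.69 to 5.04.

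Of 17 integrins ITGA6, a laminin receptor chain, was lower, from 9.62 to 9.22, and of 24 matrix genes the laminin chain LAMB1, from 7.71 to 7.09. Of 5 keratins KRT17 was higher, from 3.64 to 3.90. The colon identity list had the highest median of the 54 pathway lists, 0.14 over 36 genes, and 3 of 21 were higher. Among them, CEACAM6 went from 2.59 to 2.86 and FABP1 from 2.39 to 2.66, both under the array medians. The dimmest 3 of the 5 equal signal groups had medians of 0.07 to 0.08, and the part of signal in this list's median was not tested.

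The remaining 22 lists had 0 members called on every set. The numbers of genes given here are members with 2 or more probe sets, while each list median is over all measured members. For housekeeping machinery these were 49 cytosolic ribosomal protein genes (list median -0.04), 29 translation initiation factors (-0.06), 21 proteasome subunits (0.01), 12 aminoacyl-tRNA synthetases (-0.09), 19 nuclear pore genes (-0.08) and 20 genes of the unfolded protein response (-0.03). For growth and chromatin they were 31 cyclins and kinases (-0.10), 16 BCL2 family genes (-0.06) and 20 DNA methylation and Polycomb genes (-0.04). For lipids they were 17 cholesterol genes (-0.07) and 25 fatty acid genes (-0.04). For signalling and shape they were 11 DUSP phosphatases (-0.06), 12 immediate early genes (0.06), 12 EGF ligands and receptors (-0.16), 22 polarity genes (-0.03), 18 junction genes (-0.08), 12 epithelial-mesenchymal regulators (-0.08), 17 calcium channel subunits (0.12), 16 ankyrins and spectrins (0.01) and 12 protocadherins (0.09). The last 2 were 15 microRNA processing and silencing genes, with a median of -0.04, and 8 published miR-663 targets, with a median of 0.03 over 12 genes. Of these targets HMGA2 had a median of -0.18 over 9 sets and CXCR4 0.22 over 3. At shares of 2.39% and 1.64% over all genes, a count of 0 in lists of these lengths is no result about the list.

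**Figure D4:**
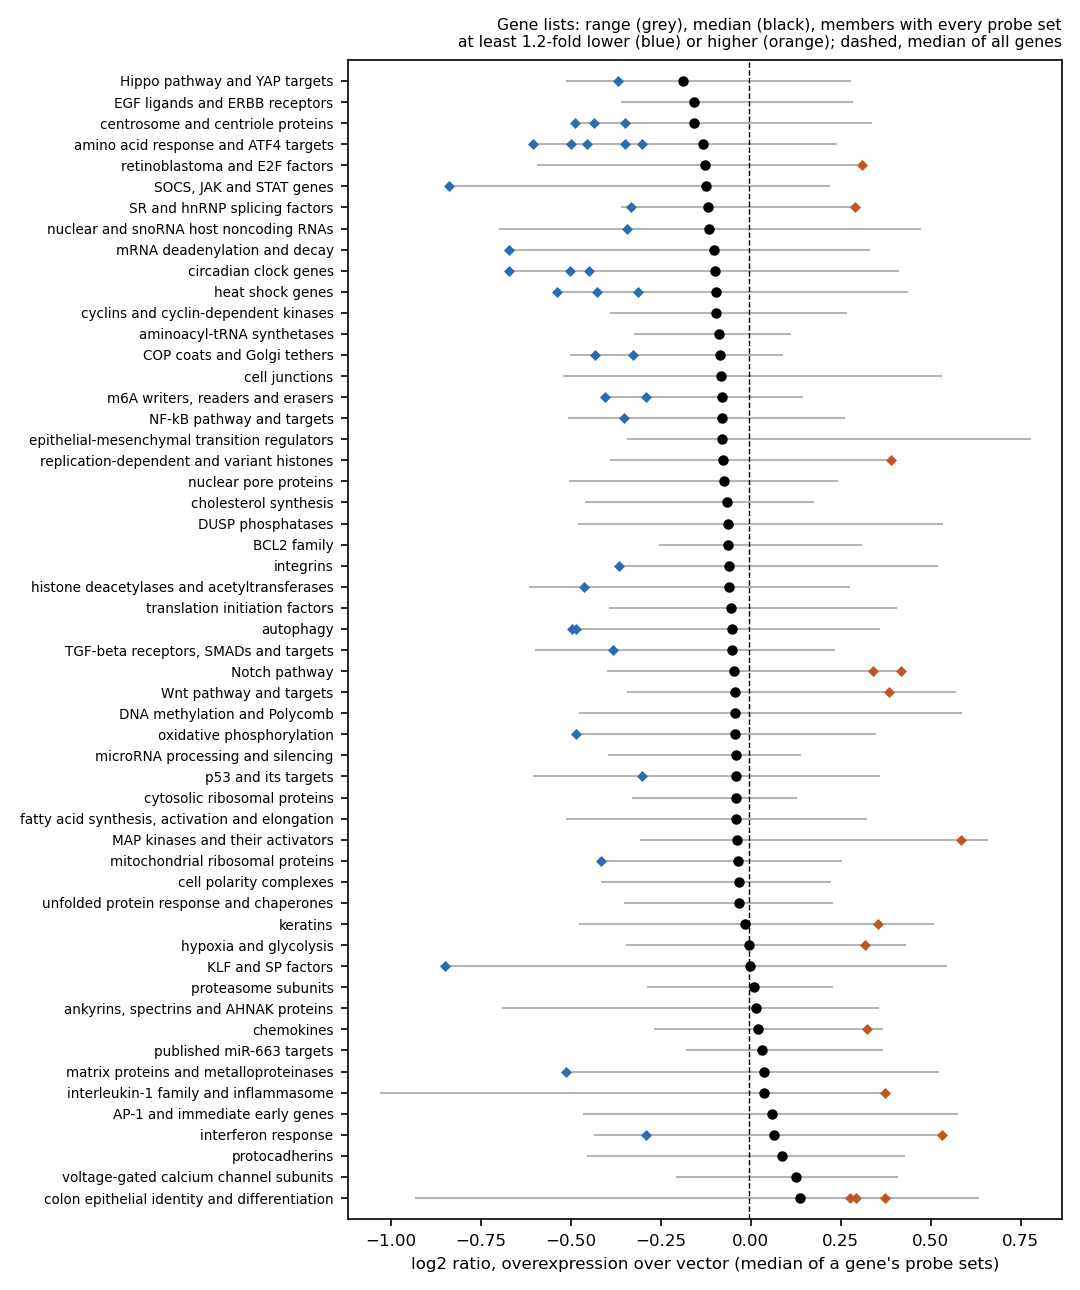
Median log2 ratio of each of 54 gene lists (black), the range of its genes (grey line), members with every probe set at least 1.2-fold lower (blue) or higher (orange), and the median of all genes (dashed, -0.007). Most list medians lie within 0.2 of 0, from -0.19 for the Hippo genes to 0.14 for colon identity, and the amino acid response holds the most blue points, 5.

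Marker lists of cell types had 0 members called on every set. Their medians were 0.06 for epithelial, 0.24 for leukocyte, 0.02 for endothelial, 0.10 for fibroblast, -0.03 for neural and 0.07 for hepatocyte markers. The leukocyte markers with levels ran from 2.04 for PTPRC to 5.32 for CD79A on the vector array, and 5 were above the median on both arrays.

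The inhibitor pair gave a readout that the overexpression counts had not used. It shares no array with the overexpression pair. Its titles on the RNA arrays contradict the source, description and genotype labels, which are followed here. With the titles, the signs taken from levels would turn. Sets without levels take the authors' ratio, whose heading names the inhibitor group over the RNA control group, and do not depend on the titles. Of the 257 genes lower on every set with overexpression, 203 (79.0%) had a median above 0 with the inhibitor, where 43.6% of all 10741 genes did. Of the 176 higher genes, 52 (29.5%) did. The median inhibitor log2 ratio was 0.11 for the lower genes, -0.10 for the higher genes and -0.02 for all. Among genes with a bright probe set the shares were 80.5% of 87 lower genes and 25% of 36 higher genes, against 43.9% of 3799. Across all 10741 genes the medians of the comparisons correlated at -0.27, and at -0.28 among the 3799. The inverse relation thus held across the array and was not limited to the genes called, and the correlation, taken across genes of 4 arrays, is a description only.

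**Figure D5:**
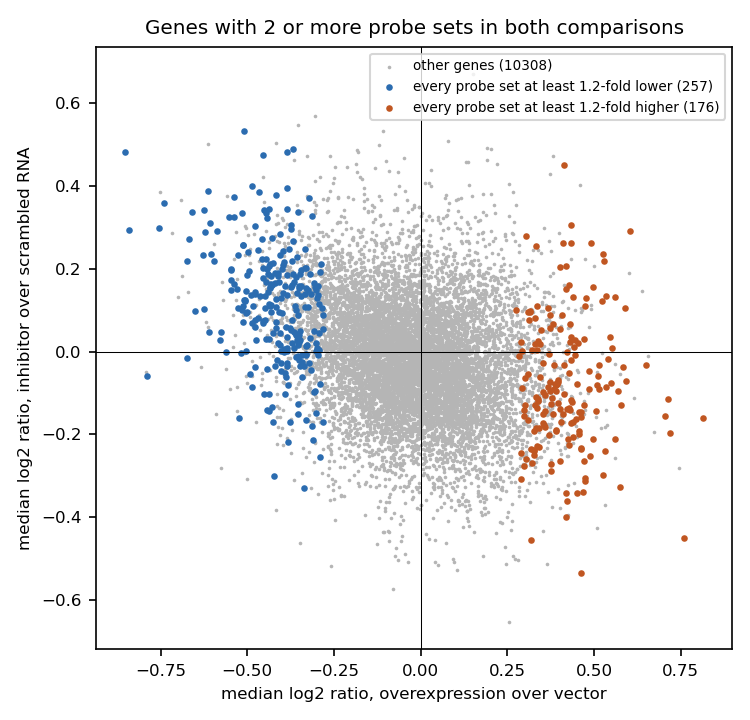
Median log2 ratio per gene of overexpression over vector (x axis) and inhibitor over scrambled RNA (y axis) for genes with 2 or more probe sets, with genes lower (blue) or higher (orange) on every set with overexpression. Of the blue points 79.0% lie above 0 on the y axis and of the orange points 29.5%, while all genes together show a correlation of -0.27.

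The pattern the design text asks for, lower with overexpression and higher with the inhibitor on every set, was met by 16 genes. They are 6.23% of the genes lower with overexpression, where 0.642% of all genes were higher with the inhibitor, and 23.2% of those higher with the inhibitor, where 2.39% of all genes were lower with overexpression. No gene was lower in both. The 7 genes higher with overexpression and lower with the inhibitor are 3.98% of the first list, against 0.773% of all genes, and 8.43% of the second, against 1.64%. The 2 genes higher in both are 1.14% of the genes higher with overexpression, against 0.642% of all genes. They are 2.90% of those higher with the inhibitor, against 1.64%, and a count of 2 is too small to read. These 16 genes were chosen by their values, so the values describe them and support nothing further. STK3, a Hippo kinase, stood at 9.41 on the vector, 8.997 on the overexpression, 9.33 on the scrambled RNA and 9.68 on the inhibitor array. THUMPD1, a cofactor of tRNA acetylation, stood at 9.51, 8.97, 9.17 and 9.56 in the same order, and SSB, the La protein that binds new RNA polymerase III transcripts, at 10.44, 10.14, 10.23 and 10.63. IRS1, the insulin receptor substrate, stood at 8.94, 8.53, 8.38 and 8.69, RB1CC1 at 9.32, 9.04, 9.02 and 9.32, and HSPA13 at 9.58, 9.27, 9.61 and 9.99. For IRS1 the inhibitor array lay below the vector array, for RB1CC1 it was level with it, and for the other 4 it lay above.

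BMPR1A, a BMP receptor, stood at 7.08, 6.70, 6.90 and 7.25, and DEFB124, a defensin gene, at 6.51, 6.08, 6.12 and 6.86. The other 8 had no levels. In the authors' deposited table CAAP1 had -0.62 with overexpression and 0.34 with the inhibitor as medians, TMED7, a cargo receptor of the early secretory path, -0.61 and 0.39, and CTBS, a lysosomal chitobiase, -0.45 and 0.34. IFT74 of ciliary transport had -0.44 and 0.32, NIP7 of ribosome assembly -0.44 and 0.34, WDR38 -0.45 and 0.47, RBM12B -0.32 and 0.37, and the antisense RNA CKMT2-AS1 -0.66 and 0.34 there. All 16 had exactly 2 probe sets.

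For the 8 genes with levels, the scrambled RNA array lay below the vector array by a median of 0.30 on the log2 scale (gene medians over their sets from -0.56 to -0.08), which is a difference between the controls. The brightest set of HSPA13 went the other way, at 9.61 on the scrambled RNA array and 9.58 on the vector array. Selecting on both pairs favours this order of the controls by itself. Among the reverse genes, BRF2, a factor of RNA polymerase III, had 0.47 and -0.34 in the authors' deposited table. PCSK2, a prohormone convertase, stood at 2.95 and 3.47 on the plasmid arrays and 3.30 and 3.002 on the scrambled RNA and inhibitor arrays, all below the median. The other 5 of these were ADGRB3, FIBIN, PYHIN1, SCN7A and TOP1P2, and the 2 genes higher in both were GVINP1 and ST8SIA2.

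Of the genes named first above as lower on 3 or more sets, from SOCS6 to SLC35G1, 13 of 14 had an inhibitor median above 0. PPP1CB stood at 9.40 on the scrambled RNA and 10.59 on the inhibitor array on its brightest set, against 10.11 and 9.37 on the vector and overexpression arrays, and its other 3 sets lay above 0 with the inhibitor, from 0.20 to 0.41. ZMYM5 lay above 0 with the inhibitor on all 4 sets, from 0.19 to 0.85, and GCLM on all 3, from 0.26 to 0.81. ZMYM5 stood at 5.18 and 5.59 on the RNA arrays, both below the overexpression array at 5.85. SLC35G1 went the other way, with 2 of its 3 sets below 0 with the inhibitor in the authors' deposited table.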

How the data were processed

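Total RNA of 4 HCT116 cultures was hybridised to Affymetrix arrays as biotinylated cRNA prepared from 250 ng of RNA, per the labels' protocols. A table deposited by the authors holds log2 levels of 16381 probe sets on each array. Per the submitters' processing notes MAS5 was used, with no version. How the arrays were scaled to each other is unstated. The authors also deposited linear ratios of 42450 probe sets, 12704 of them with levels. For these the log2 of the ratio matched the level difference to within 9.87e-05, and for the 29746 others log2 of the ratio was used.

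Of all ratio probe sets, 38834 were named through RefSeq accessions (GRCh38.p14), 610 by symbol, 526 by gene number and 339 by older symbol, 1170 kept the file's symbol, and 970 with several genes and 1 with none were left out. The positions of 941 sets lie on another chromosome than their gene. Groups came from source, description and genotype labels.

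Differences were described and not tested, since each group has 1 array, whose number limits the precision. Counts used the brightest probe set at 1.5-fold or every probe set at 1.2-fold, as the report states. The text names the 15 lowest and 15 highest genes with 3 or more sets, 8 and 8 with 2 sets, the 12 largest falls and rises on the brightest set, up to 4 members of each of 54 gene lists, members a count rests on, MIR663AHG, TTC22, DICER1 and marker genes. A few of these are not reported here. Members, lists and rules were chosen with earlier results of these data known. Seed sites were not analysed here. The calculation was tested on simulated data. Alternatives were the scaling, filters, thresholds, an offset of 64 and subsets of probe sets. Python 3.11.15, numpy 2.4.6, pandas 2.3.3 and matplotlib 3.10.9 were used.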

Additional observations from a re-analysis of the deposited data

How the results depend on the processing

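No paired analysis was possible because each group has 1 array. On the brightest probe set, 89 genes were lower and 51 higher at 1.5-fold. Centring each array gave 142 and 28, and quantile normalization of the pair 57 and 54. The counts were 62 and 51 with a running median along signal subtracted, 120 and 172 with dim genes kept, 74 and 27 above the 60th percentile, 19 and 4 with 64 added on the linear scale, 60 and 29 with the mean over all probe sets with levels, and 2 and 3 at 2-fold. On every probe set, 257 genes were lower and 176 higher at 1.2-fold. With the median log2 ratio of all probe sets subtracted, the counts were 215 and 208. They were 58 and 24 with at least 3 probe sets, 165 and 141 without s and x sets, and 77 and 11 on sets above the median only. At 1.1-fold they were 909 and 584, and at 1.5-fold 3 and 4. Without sets listed on another chromosome, an alternative added after the data were seen, they were 255 and 172. The correlation between the 2 brightest sets of a gene was 0.30, and 0.24 with dim genes kept, 0.24 with the running median subtracted and 0.17 without s and x sets. The cause of these shifts was not tested, apart from the fewer genes or sets that stricter settings leave. Of 54 list medians, 9 turned sign with the brightest set alone. With the median log2 ratio of all probe sets subtracted 3 turned, and without s and x sets 3. Of 499 named genes, 11 turned sign with that median subtracted, a shift too small to turn any gene called on every set. On the brightest set, 23 of 306 named genes with levels turned sign after quantile normalization. None of these 23 had differed by at least 1.5-fold on that set. Single arrays and dim signal set the limits: in the dimmest of 4 groups of genes the sets correlated at 0.002.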
